A study of Mus musculus with 12 samples.

Results

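The 40 genes described here encode the machinery that copies DNA in S phase, the enzymes that supply its nucleotides and 3 regulators of the step from G1 into S. They were chosen by symbol from their known function and not by a rule on their values, though with earlier results of these data known. All 40 were found among the 47643 genes of the deposited table. By role they comprised 10 origin licensing genes, 6 helicase activation genes, 6 polymerase and primase genes, 5 clamp and clamp loader genes and 2 single-strand binding genes. The others were 4 nucleotide supply genes, 2 genes of Okazaki fragment joining, 2 of chromatin assembly and 3 G1/S regulators.

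RNA was sequenced in bulk from spleen cells labelled naive CD4+ T cells of C57BL/6 mice, after 3 days on plates coated with anti-CD3 and anti-CD28 antibodies at 2 μg/ml each. The 4 groups of 3 libraries were Tnfr2-/- cells with TNF and TGF-β, wild type (WT) cells with TNF and TGF-β, WT cells with IL-6 and TGF-β, and WT cells with no added cytokine (Th0). Tnfr2-/- mice lack TNF receptor 2, encoded by Tnfrsf1b. Doses were 2 ng/ml for TGF-β and 20 ng/ml for TNF or IL-6, on 500000 cells per well. The 2 cytokine mixtures are called the TNF pair and the IL-6 pair where they are set against each other. All groups received the antibodies. WT cells with TGF-β alone and Tnfr2-/- cells without cytokine were not analysed here, so TNF or IL-6 cannot be told apart from TGF-β against Th0. Nor can an effect of the genotype under TNF be told apart from one that was there without it. The labels give triplicates and do not say whether these came from separate mice or cultures, so the p-values measure only the spread between these libraries, which may be technical.

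Values are FPKM (fragments counted per unit of transcript length and of library depth), and estimated depth was 16700000 to 23900000 fragments per library. All 40 genes were among the 13082 tested, and their lowest value was 1.57 FPKM. Differences were fitted with limma on log2(FPKM + 1), which understates the change of low genes, and a gene was called at an adjusted p (Benjamini-Hochberg over all tested genes) under 0.05. Tnfrsf1b stood at 4.87, 3.71 and 3.19 FPKM in the Tnfr2-/- libraries, against 74.4, 108.2 and 70.8 FPKM in the WT libraries with TNF+TGF-β. The cells were labelled CD4+, yet Cd8a was above Cd4 in 11 of the 12 libraries, the exception being the Tnfr2-/- library numbered 4. Markers of B cells were present in all 12 libraries too. These 8 markers summed to 1960 to 4307 FPKM in Tnfr2-/- cells, 263.5 to 339.9 in WT cells with TNF+TGF-β, 422.2 to 937.9 with IL-6+TGF-β and 768.7 to 1222 in Th0.

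Replication begins with licensing, in which the origin recognition complex, Cdc6 and Cdt1 load the MCM2-7 helicase onto origins in G1. Cdc45, the GINS complex and Mcm10 then turn the loaded helicase into a moving fork, where DNA polymerases work with the sliding clamp PCNA, its loader RFC and the single-strand binding protein RPA. Many of these genes are targets of E2F transcription factors, which are released from RB proteins once cyclin-dependent kinases act, and naive T cells switch them on when activated through the T cell receptor and CD28.

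Promoter sequences from RefSeq (GRCm38.p6), running from 250 bases before to 50 bases after the annotated start, were found for 32 of the 40 genes. No promoter sequence was used for Mcm4, Gins1, Gins2, Gins4, Prim2, Pole, Rfc2 and Ccne2. An E2F element, searched as TTTCCCGC, TTTCGCGC, TTTGCCGC or TTTGGCGC on both strands, was present in 11 of the 32 (34.4%), in 4.27% of the 9197 promoters of tested genes and in 2.32% of all 27025 promoters. 7 of the 11 were licensing genes, and the other 4 were Gins3, Pola1, Pold1 and Rfc3. The windows of the 7 licensing genes and Rfc3 are printed because licensing genes held most of the elements. Cdt1 and Rfc3 were also called in comparisons of WT cells, though not in Tnfr2-/- against WT cells, and both promoters hold the element. Lig1, Rfc5 and Pcna were called in several comparisons too, and their promoters held 0 elements by this search. Each window is read 5′ to 3′ along the gene's strand, with the elements in capitals. At most 30 bases are taken from after the start site. In Cdt1 and Mcm3 those bases begin beyond the start site. Their elements begin at position 33 in Cdt1 and at positions 20 and 39 in Mcm3, counted from the start site.
Orc1: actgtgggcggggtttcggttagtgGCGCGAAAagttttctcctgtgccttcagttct
Cdc6: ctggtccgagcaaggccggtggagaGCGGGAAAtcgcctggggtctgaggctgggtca
Cdt1: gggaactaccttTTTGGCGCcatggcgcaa
Mcm3: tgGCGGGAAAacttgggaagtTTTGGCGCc
Mcm5: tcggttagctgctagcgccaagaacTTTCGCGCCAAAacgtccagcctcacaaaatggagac
Mcm6: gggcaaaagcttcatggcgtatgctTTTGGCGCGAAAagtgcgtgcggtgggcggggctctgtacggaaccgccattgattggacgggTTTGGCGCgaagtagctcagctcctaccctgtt
Mcm7: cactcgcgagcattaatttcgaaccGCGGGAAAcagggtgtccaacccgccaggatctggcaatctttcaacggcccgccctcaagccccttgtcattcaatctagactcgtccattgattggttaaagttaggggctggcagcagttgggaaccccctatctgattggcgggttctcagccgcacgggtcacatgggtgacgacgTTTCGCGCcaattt
Rfc3: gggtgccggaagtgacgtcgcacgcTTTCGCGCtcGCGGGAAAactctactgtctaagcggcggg

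In GRCm38.p6 coordinates, 3 of these windows lie on the plus strand in Orc1 (chr4:108579402-108579459), Cdc6 (chr11:98907988-98908045) and Mcm5 (chr8:75109331-75109392). That of Cdt1 is also on the plus strand (chr8:122568035-122568064). The windows of Mcm3 (chr1:20820266-20820295), Mcm6 (chr1:128359720-128359840), Mcm7 (chr5:138171854-138172073) and Rfc3 (chr5:151651179-151651243) lie on the minus strand. In Mcm5 and at the upstream site of Mcm6, elements on both strands overlap, so that 1 stretch reads as an element either way. 5 of the 32 promoters, those of Mcm3, Mcm5, Mcm6, Mcm7 and Rfc3, held 2 or more elements. The CHR element of mitotic promoters, searched as TTTGAA or TTCGAA, was in 18.8% of the 32 promoters and in 76.5% of 17 promoters of mitosis genes. Its share was 14.2% in the promoters of tested genes and 19.4% in all promoters. The sequence CCAAT was in 59.4% of the 32 promoters and in 88.2% of the 17 promoters of mitosis genes. It was in 39.5% of those of tested genes and 37.9% of all promoters. For the GC box GGGCGG the shares were 71.9%, 82.4%, 64.9% and 35.9% in the same order. A match is a description of these letters and not a binding site. By the gene coordinates of GENCODE M21, the windows searched for Cdc6 and Mcm7 lay within the gene, and that for Mcm5 lay wholly before it.

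**Figure D1:**
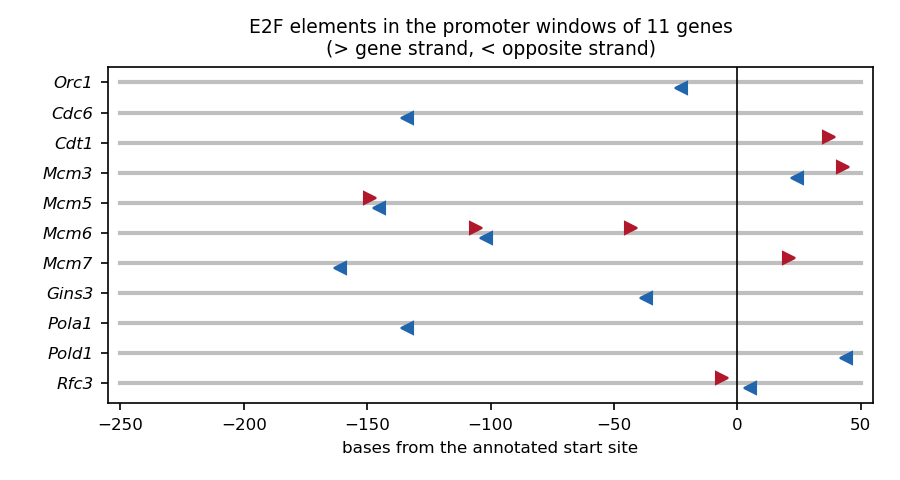
E2F elements in the promoter windows of the 11 genes that hold one, by distance in bases from the annotated start site (vertical line). Red marks point along the gene's strand and blue marks against it; the pairs in Mcm5 and at the upstream site of Mcm6 overlap.

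The first comparison asks how these genes differ without TNFR2, between Tnfr2-/- and WT cells that both received TNF+TGF-β. Of the 40 genes, 32 were lower in Tnfr2-/- cells and 0 higher (80%), against 17.5% of all tested genes called lower and 19.9% called higher. The libraries of both groups did not overlap for 35 of the 40, all lower in Tnfr2-/- cells, against 24% of tested genes with ranges apart in that direction and 26.8% in the other. The median difference over the 40 was −1.02 on the log2 scale, with a range of −2.07 to 0.15, and the median over all tested genes was 0.002. Summed over the 40 genes, the level was 2658, 2066 and 1667 FPKM in the Tnfr2-/- libraries numbered 1, 2 and 4, against 4282, 3553 and 4379 FPKM in WT replicates 1, 2 and 3. The Tnfr2-/- sums were 65.3%, 50.7% and 40.9% of the WT mean. In bulk RNA, fewer cycling cells and less of these RNAs per cell cannot be told apart.

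**Figure D2:**
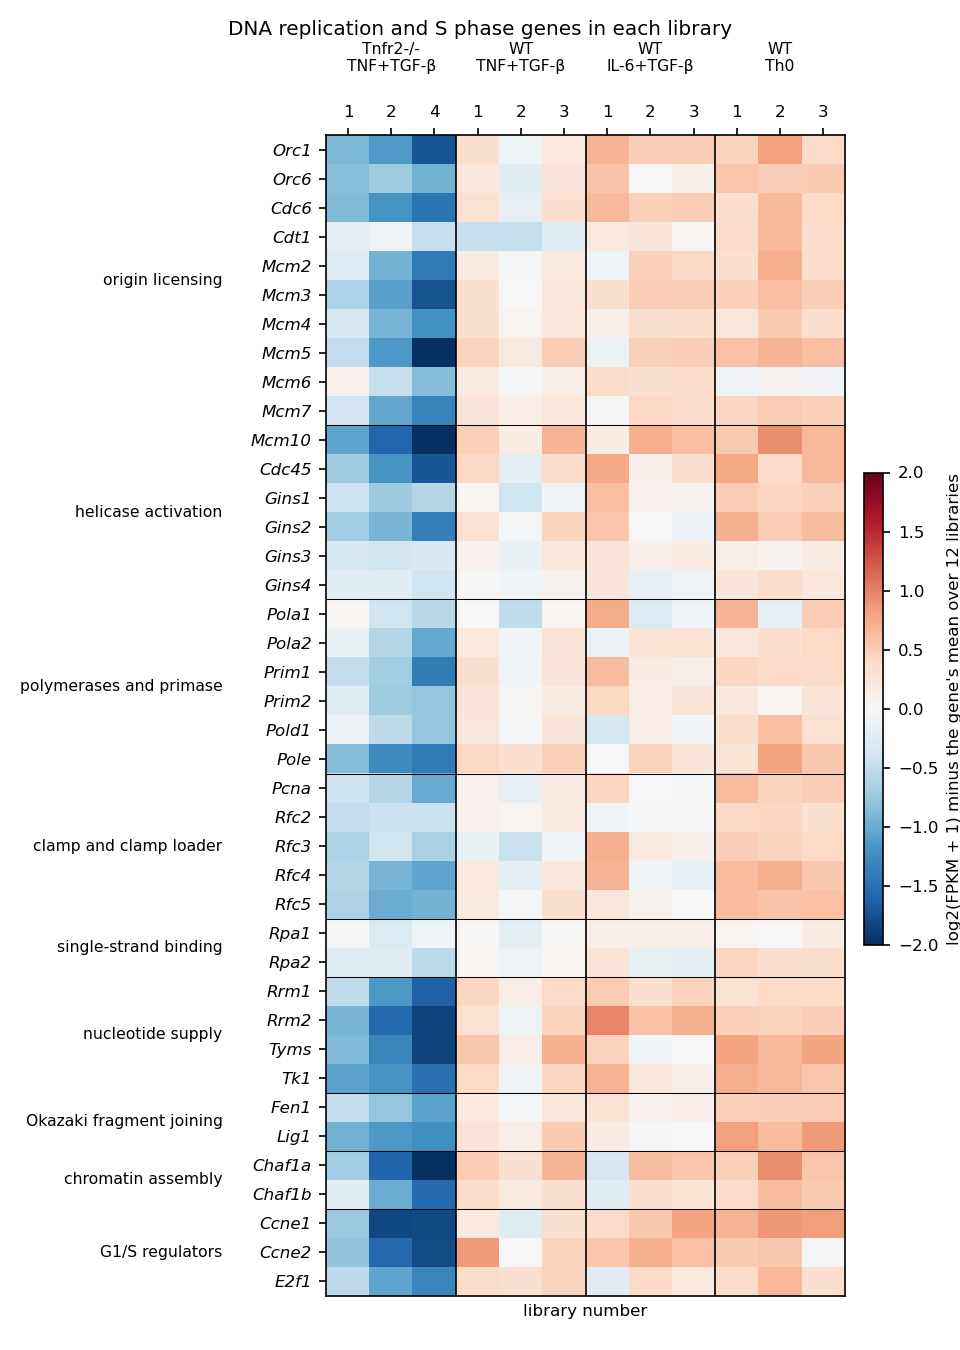
Level of each of the 40 genes in each of the 12 libraries, as log2(FPKM + 1) minus the gene's mean over the 12, with genes in rows by role and libraries in columns by group. The Tnfr2-/- columns are blue for nearly all rows, most deeply in the library numbered 4, while for Cdt1 they overlap with the WT columns with TNF+TGF-β.

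Among the origin licensing genes, 8 of 10 were lower in Tnfr2-/- cells, with a median difference of −1.07. Orc1, the largest subunit of the origin recognition complex, had 3.58, 2.90 and 1.57 FPKM in Tnfr2-/- cells, against 9.65, 7.05 and 8.81 FPKM in WT cells. Cdc6, which recruits the MCM helicase, had 17.2, 13.8 and 11.2 FPKM in Tnfr2-/- cells, against 40.2, 28.9 and 41.3 FPKM in WT cells. Neither gene's groups overlapped, and the differences were −1.40 ± 0.22 (SE; limma adjusted p = 0.000435) and −1.33 ± 0.17 (limma adjusted p = 0.000138). Orc6, a smaller subunit of the same complex, averaged 25.3 ± 2.10 FPKM in Tnfr2-/- cells and 49.2 ± 8.50 FPKM in WT cells (SD, n = 3 each), and was called lower.

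The 6 subunits of the MCM2-7 ring did not differ by the same amount. Mcm5 fell most, to 100.6, 63.3 and 29.4 FPKM in Tnfr2-/- cells, against 193.2, 161.5 and 203.0 FPKM in WT cells (−1.67 ± 0.33, limma adjusted p = 0.00229). Mcm3 averaged 120.8 ± 44.7 FPKM in Tnfr2-/- cells and 293.3 ± 32.5 FPKM in WT cells (SD, n = 3 each), a difference of −1.34. Mcm2 had 80.4, 49.5 and 35.6 FPKM in Tnfr2-/- cells, against 108.5, 94.3 and 109.5 FPKM in WT cells (−0.98 ± 0.25, limma adjusted p = 0.00913). Mcm7 (−1.12) and Mcm4 (−1.01) were also called lower, and their groups did not overlap either. Mcm6 had 347.7, 237.7 and 178.1 FPKM in Tnfr2-/- cells, against 370.2, 319.3 and 352.4 FPKM in WT cells. Its groups overlapped and it was not called (−0.50, 95% interval −0.91 to −0.09, limma adjusted p = 0.0568).

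Cdt1, the licensing factor that works with Cdc6, was the only one of the 40 with a positive difference. It had 40.9, 44.8 and 33.7 FPKM in Tnfr2-/- cells, against 33.9, 33.8 and 39.5 FPKM in WT cells. The groups overlapped and it was not called (0.15, 95% interval −0.15 to 0.44, limma adjusted p = 0.419). Divided by the sum of Cd3d, Cd3e and Cd3g, the chains of the CD3 complex, Cdt1 was called higher in Tnfr2-/- cells (0.51, limma adjusted p = 0.0188). That scaling was chosen after the data were seen, and it moved the median of all tested genes to 0.32.

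Of the helicase activation genes, 4 of 6 were lower in Tnfr2-/- cells. Mcm10, which helps to start the fork (chr2:4989714-5012791, minus strand, GRCm38), had the largest fall of all 40 genes. It had 9.64, 6.37 and 3.64 FPKM in Tnfr2-/- cells, against 29.97, 23.7 and 34.5 FPKM in WT cells (−2.07 ± 0.27, limma adjusted p = 0.000134). Every Tnfr2-/- library lay below every WT library. Cdc45, which joins the helicase with GINS, had 33.4, 23.9 and 16.1 FPKM in Tnfr2-/- cells, against 73.8, 48.4 and 71.8 FPKM in WT cells (−1.40 ± 0.26, limma adjusted p = 0.00139).

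The 4 GINS subunits, which form 1 complex, differed among themselves. Gins2 averaged 31.2 ± 7.25 FPKM in Tnfr2-/- cells and 74.5 ± 11.96 FPKM in WT cells (SD, n = 3 each; −1.24, limma adjusted p = 0.000678). Gins3 had 9.23, 8.87 and 9.40 FPKM in Tnfr2-/- cells, against 12.6, 10.6 and 13.7 FPKM in WT cells (−0.38, limma adjusted p = 0.0350). That call was lost when any 1 of 5 libraries was left out. The adjusted p was 0.104 and 0.135 without WT replicates 1 and 3, and 0.05225, 0.0912 and 0.0548 without the Tnfr2-/- libraries numbered 1, 2 and 4. Gins1 (−0.43, 95% interval −0.80 to −0.07) and Gins4 (−0.29, 95% interval −0.55 to −0.03) were not called. Gins2 shares 2758 of its 4097 exon bases with Gse1 on the opposite strand, and the library kit does not mark strand, so their reads cannot be told apart there. Gse1 reached at most 6.67 FPKM.

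Among the polymerase and primase genes, 5 of 6 were lower. Pole, the catalytic subunit of the leading-strand polymerase ε, had 14.3, 10.6 and 9.42 FPKM in Tnfr2-/- cells, against 36.3, 34.2 and 37.95 FPKM in WT cells (−1.59 ± 0.18, limma adjusted p = 5.08e-05). Prim1, the catalytic primase subunit that makes the RNA primer, averaged 29.3 ± 9.06 FPKM in Tnfr2-/- cells and 59.3 ± 7.80 FPKM in WT cells (SD, n = 3 each; −1.03). Its partner Prim2 differed by −0.72 and Pola2, the accessory subunit of polymerase α, by −0.71. Pola1, the catalytic subunit of polymerase α, had 12.9, 9.24 and 8.26 FPKM in Tnfr2-/- cells, against 12.4, 8.55 and 12.9 FPKM in WT cells. Those values overlapped, and the interval of the difference ran from −0.79 to 0.50. Pold1, the catalytic subunit of polymerase δ, was called at −0.62 (limma adjusted p = 0.0170). Single libraries decided the calls of Pola2 and Pold1. Without WT replicates 1 and 3 the adjusted p of Pola2 was 0.0543 and 0.0600, and without the Tnfr2-/- library numbered 4 it was 0.0594. For Pold1 it was 0.0612 and 0.0610 without WT replicates 1 and 3, and 0.0531 and 0.0699 without the Tnfr2-/- libraries numbered 2 and 4.

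**Figure D3:**
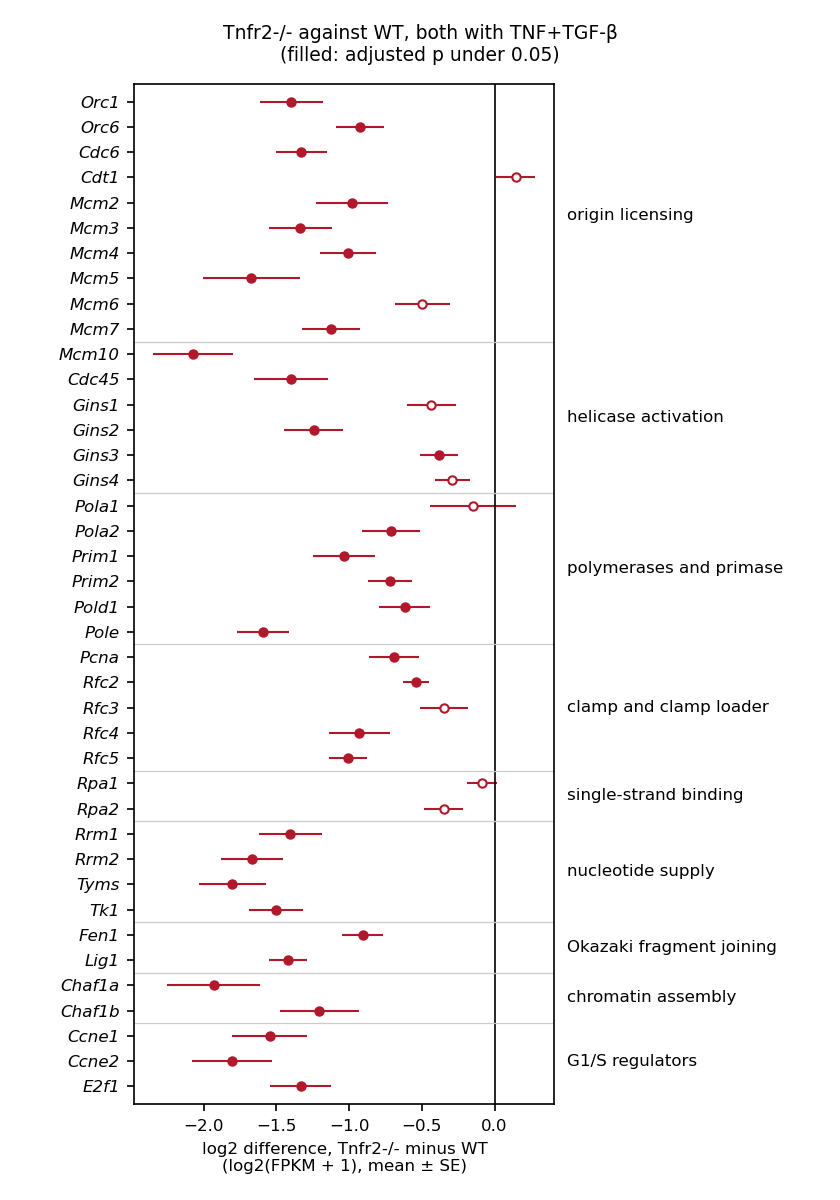
Difference in log2(FPKM + 1) between Tnfr2-/- and WT cells, both with TNF+TGF-β, for each of the 40 genes by role (mean ± SE, 3 libraries per group). Filled points are the 32 called lower; the 8 open points include Cdt1, the one value above 0.

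The sliding clamp and its loader were lower in 4 of 5 genes, by less than the licensing genes at the median (−0.69). Pcna had 177.9, 156.7 and 117.1 FPKM in Tnfr2-/- cells, against 251.7, 210.5 and 261.1 FPKM in WT cells (−0.69 ± 0.17, limma adjusted p = 0.00859). Rfc5 averaged 33.8 ± 5.02 FPKM in Tnfr2-/- cells and 68.8 ± 8.23 FPKM in WT cells (SD, n = 3 each; −1.01, limma adjusted p = 0.000127). Rfc4 differed by −0.93. Rfc2 had nearly level values within each group, at 117.8, 123.5 and 123.7 FPKM in Tnfr2-/- cells and 175.4, 172.2 and 185.9 FPKM in WT cells (−0.54 ± 0.09). Rfc3 overlapped between the groups and was not called (−0.35, 95% interval −0.71 to 0.01). Rfc2 shares 952 of 6303 exon bases with Lat2, which reached 136.5 FPKM, on the opposite strand. Likewise Rfc5 shares 499 of 4669 with Wsb2, which reached 59.6 FPKM, and Rfc4 shares 194 of 1533 with Eif4a2, which reached 151.4 FPKM.

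Neither RPA gene was called. Rpa1, which binds single-stranded DNA in replication and repair alike, had 145.1, 123.3 and 140.8 FPKM in Tnfr2-/- cells, against 151.3, 131.2 and 152.4 FPKM in WT cells. The interval of that difference, −0.32 to 0.14, excludes a fall of the size of the median gene of the set. Rpa2 differed by −0.35 (95% interval −0.64 to −0.06, limma adjusted p = 0.0599), and its groups did not overlap.

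All 4 nucleotide supply genes were lower, with a median difference of −1.58. Rrm2, the S phase subunit of ribonucleotide reductase, had 122.0, 78.8 and 63.9 FPKM in Tnfr2-/- cells, against 289.4, 219.8 and 318.1 FPKM in WT cells (−1.67 ± 0.21, limma adjusted p = 0.000110). Tyms, the thymidylate synthase gene, had 97.3, 72.7 and 49.3 FPKM in Tnfr2-/- cells, against 262.0, 197.6 and 296.0 FPKM in WT cells (−1.80 ± 0.23, limma adjusted p = 0.000110). Each Tnfr2-/- library was below 100 FPKM for Tyms and each WT library with TNF+TGF-β above 190. Tk1, which salvages thymidine, averaged 30.2 ± 4.48 FPKM in Tnfr2-/- cells and 87.7 ± 16.4 FPKM in WT cells (SD, n = 3 each; −1.50). Rrm1, the large reductase subunit, differed by −1.40.

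The genes that finish the new strand and package it were all called lower. Lig1, the ligase that seals Okazaki fragments, had 42.4, 37.3 and 34.9 FPKM in Tnfr2-/- cells, against 101.0, 91.4 and 120.6 FPKM in WT cells. It differed by −1.42 ± 0.13, with the smallest adjusted p of the 40 genes (limma, 1.42e-05). Fen1, the flap nuclease, differed by −0.91. Chaf1a and Chaf1b encode subunits of CAF-1, which places histones on new DNA. Chaf1a had 15.3, 7.77 and 5.65 FPKM in Tnfr2-/- cells, against 36.8, 32.0 and 41.5 FPKM in WT cells (−1.93 ± 0.32, limma adjusted p = 0.000683), and Chaf1b differed by −1.204. Chaf1a shares 4648 of 8854 exon bases with Ubxn6, which reached 47.9 FPKM, and Fen1 shares 1909 of 2422 with Gm10143, which reached 1.06 FPKM, both on opposite strands.

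All 3 G1/S regulators were lower. Ccne1, which encodes cyclin E1, had 17.8, 7.91 and 8.03 FPKM in Tnfr2-/- cells, against 35.01, 25.6 and 38.3 FPKM in WT cells (−1.55 ± 0.26, limma adjusted p = 0.000755). Ccne2, the cyclin E2 gene, had 8.99, 4.83 and 4 FPKM in Tnfr2-/- cells, against 30.1, 16.1 and 22.4 FPKM in WT cells (−1.81 ± 0.28, limma adjusted p = 0.000390). E2f1 had 11.2, 7.48 and 6.10 FPKM in Tnfr2-/- cells, against 21.6, 20.9 and 22.9 FPKM in WT cells (−1.33 ± 0.21, limma adjusted p = 0.000467). For none of the 3 did the groups overlap. Ccne2 shares 609 of 3495 exon bases with Ints8, which reached 43.6 FPKM, on the opposite strand. By promoter, the 11 genes with an E2F element had a median difference of −0.62, with 7 called lower, and the 21 without one had −1.204, with 19 called lower. The search took exact letters only, so genes with near matches, such as Chaf1a and Pola2, counted as without one. By the gene coordinates of GENCODE M21, the windows used for E2f1, Cdc6 and Mcm7 lay within the gene. Those used for Mcm5, Fen1, Lig1 and Rpa1 lay wholly before it. Most of the 11 were licensing genes. Whether the element bears on the difference was not tested.

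Other cell cycle lists moved in the same comparison. All 20 mitosis and G2/M genes were lower, with a median of −1.90 beside −1.02 for the 40 replication genes. Plk1, a mitotic kinase, averaged 20.9 ± 9.48 FPKM in Tnfr2-/- cells and 118.5 ± 23.9 FPKM in WT cells (SD, n = 3 each; −2.51), and Bub1b, of the spindle checkpoint, differed by −2.34. The summed level of the 40 genes was 2.55, 2.71 and 2.62 times that of the 20 mitosis genes in Tnfr2-/- libraries, against 1.49, 1.57 and 1.47 times in WT libraries. Of 32 other replication genes, 21 were lower and 2 higher, with Uhrf1, which maintains DNA methylation at the fork, at −2.41 and Ticrr, which helps origins to fire, at −2.07. Of 22 E2F, RB, cyclin and CDK regulators, 13 were lower and 0 higher, led by E2f8 (−2.602), a repressor of the E2F family, and Ccna2 (−2.21), the cyclin A2 gene. Of 13 replication checkpoint genes, 5 were lower, led by the kinase gene Chek1 (−1.10) and by Timeless (−0.86), and 2 were higher.

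Some genes of nucleotide supply and cycle arrest moved the other way. In a list of 12 other nucleotide supply genes, 7 were lower and 3 higher. Tk2, the mitochondrial thymidine kinase gene, averaged 36.9 ± 5.62 FPKM in Tnfr2-/- cells and 11.7 ± 3.88 FPKM in WT cells (SD, n = 3 each; 1.61, limma adjusted p = 0.000123). Samhd1, which breaks down deoxynucleotides, averaged 250.1 ± 26.6 FPKM in Tnfr2-/- cells and 92.6 ± 13.4 FPKM in WT cells (SD, n = 3 each; 1.43). Of 6 CDK inhibitors tested, Cdkn1b, encoding p27, was higher. It had 14.9, 18.2 and 28.5 FPKM in Tnfr2-/- cells, against 8.06, 8.46 and 8.50 FPKM in WT cells. Cdkn1a, encoding p21, was called lower (−1.34), but WT replicate 2, at 44.6 FPKM, lay within the Tnfr2-/- range of 34.02 to 45.8 FPKM.

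Markers of other cells moved with this comparison. All 8 B cell markers were higher in Tnfr2-/- cells, and their sums were 1960, 3514 and 4307 FPKM in the libraries numbered 1, 2 and 4, against 268.1, 339.9 and 263.5 FPKM in WT replicates 1, 2 and 3. Cd79a, which encodes a chain of the B cell receptor complex, averaged 1174 ± 486 FPKM in Tnfr2-/- cells and 92.6 ± 26.6 FPKM in WT cells (SD, n = 3 each). Of 8 myeloid markers 6 were higher, with sums of 1590, 1190 and 275.2 FPKM in Tnfr2-/- cells, against 119.0, 201.1 and 107.7 FPKM in WT cells. Of the 8 markers of the dendritic cell list, Cd74 and H2-Ab1, which B cells also express, were higher, Itgax and Zbtb46 were lower, and Clec9a was at 0 in both groups. Of the 3 erythroid markers tested 2 were higher, with list sums of 5.10 to 93.1 FPKM in Tnfr2-/- cells and 1.78 to 6.67 FPKM in WT cells. Of 5 CD8 and NK markers tested 4 were lower, with list sums of 97.7 to 303.9 FPKM in Tnfr2-/- cells and 1226 to 1422 FPKM in WT cells. In the list of 8 CD4 T cell markers 3 were lower and 1 higher, with sums of 1906 to 2821 FPKM in Tnfr2-/- cells and 2568 to 2776 FPKM in WT cells. The Tnfr2-/- library numbered 1 had the lowest B cell sum of its group and the highest sum of the 40 genes. That library also had the highest myeloid, CD8 and NK, and CD4 T cell sums of its group.

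**Figure D4:**
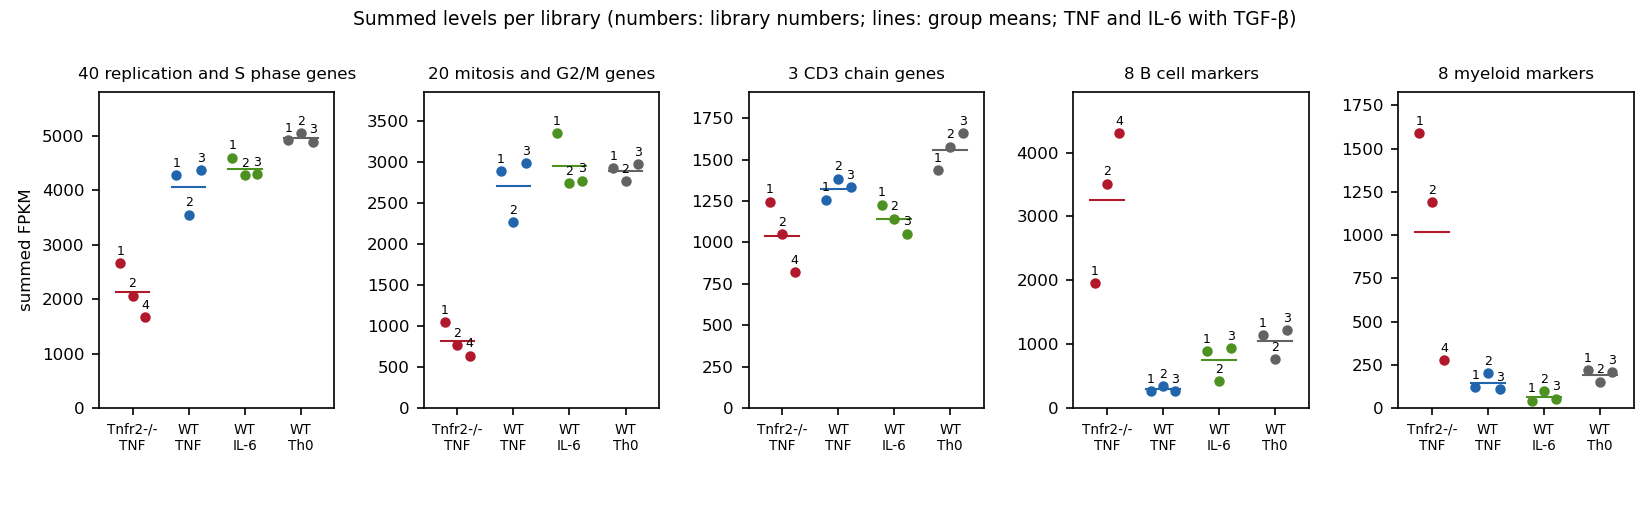
Summed FPKM per library of the 40 genes, 20 mitosis and G2/M genes, 3 CD3 chain genes, 8 B cell markers and 8 myeloid markers (points, with library numbers; lines are group means). Tnfr2-/- libraries are lowest for both cell cycle sums and highest for the B cell sum.

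2 alternatives bear on those marker values directly. With each library divided by its CD3 sum, 26 of the 40 genes were called lower in Tnfr2-/- cells and 1, Cdt1, higher, with a median difference of −0.66. Relative to the median of all tested genes, the 40 stood at −0.98 with that scaling and −1.02 as deposited. Dividing a library by 1 number shifts all its genes nearly alike, so these relative values were bound to be close. The genes no longer called with CD3 scaling were Gins3, Pola2, Prim2, Pold1, Pcna and Rfc2. The CD3 sums were 1247, 1051 and 821.8 FPKM in Tnfr2-/- cells, against 1259, 1385 and 1334 FPKM in WT cells. With the Tnfr2-/- library numbered 1 alone, the median difference was −0.66. Its B cell sum was still 6.75 times the WT mean with TNF+TGF-β, and its myeloid sum 11.15 times. The part that other cells play in the result beyond these values was not tested.

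The second comparison asks how TNF+TGF-β changed these genes in WT cells, against Th0. Of the 40 genes 7 were lower and 0 higher (17.5%), against 13% of all tested genes called lower and 18.7% called higher. 38 of the 40 differences were negative, with a median of −0.29 beside 0.07 over all tested genes. Negative differences numbered 30, with a median of −0.11, in TPM (FPKM rescaled so that each library has the same total), and 28 with each library divided by its CD3 sum. The libraries did not overlap for 25 genes, all lower with TNF+TGF-β, against 23.2% of tested genes with ranges apart in that direction. Summed over the 40 genes, the level was 4282, 3553 and 4379 FPKM with TNF+TGF-β, against 4931, 5056 and 4897 FPKM in Th0. Replicate 2 with TNF+TGF-β was the lowest of its group for all 40 genes, and without it 2 genes were called lower.

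Cdt1 fell most with TNF+TGF-β. It had 33.9, 33.8 and 39.5 FPKM with TNF+TGF-β, against 61.8, 73.8 and 60.5 FPKM in Th0 (−0.85 ± 0.13, limma adjusted p = 0.000570). Rfc3 had 68.2, 54.8 and 72.2 FPKM with TNF+TGF-β, against 105.9, 102.6 and 99.03 FPKM in Th0 (−0.66 ± 0.16, limma adjusted p = 0.0101). Both were called whichever of the 6 libraries was left out. Of the clamp and clamp loader genes 4 of 5 were lower, Pcna (−0.50), Rfc2 (−0.29) and Rfc5 (−0.43) beside Rfc3. Pcna had 251.7, 210.5 and 261.1 FPKM with TNF+TGF-β, against 368.6, 320.6 and 333.3 FPKM in Th0 (limma adjusted p = 0.0439). The other 2 called genes were Gins1 (−0.61, limma adjusted p = 0.0164) and Lig1 (−0.46, limma adjusted p = 0.0181).

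Few of these 7 calls were firm. The count was 2 without Th0 replicate 1 or Th0 replicate 3, 4 without Th0 replicate 2, and 3, 2 and 6 without TNF+TGF-β replicates 1, 2 and 3. In TPM, 3 were called, Cdt1, Gins1 and Rfc3. The median of all genes was 0.22 in TPM and 0.07 as deposited, and relative to that median the 40 genes stood at −0.36 as deposited and −0.33 in TPM. TPM too divides each library by 1 number, so these relative values were bound to be close. Divided by the CD3 sum, 1 was called, Cdt1. Pcna lost its call whichever of the 6 libraries was left out, and Rfc2 and Rfc5 lost theirs without any 1 of 5, all but TNF+TGF-β replicate 3. Gins1 was not called without Th0 replicate 1, Th0 replicate 3 or TNF+TGF-β replicate 2, and Lig1 not without Th0 replicates 1 or 3 or TNF+TGF-β replicates 1 or 2. Among genes not called, Ccne1 had 35.01, 25.6 and 38.3 FPKM with TNF+TGF-β, against 49.7, 56.9 and 55.6 FPKM in Th0 (−0.71, limma adjusted p = 0.0547). Cdc6 (−0.32), Mcm2 (−0.38), Mcm5 (−0.24), Cdc45 (−0.41), Rrm2 (−0.26), Tyms (−0.28), E2f1 (−0.09) and Ccne2 (0.09) were not called either, with intervals that reach 0.

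The third comparison sets IL-6+TGF-β, the standard cytokine pair for Th17 cells, against Th0. Of the 40 genes 3 were lower and 0 higher (7.5%), against 9.15% of all tested genes called lower and 14.1% called higher. The median difference was −0.22 beside 0.04 over all tested genes, and the libraries did not overlap for 12 genes lower and 3 higher, against 16.8% and 22.4% of tested genes. Lig1 had 93.05, 81.1 and 83.2 FPKM with IL-6+TGF-β, against 148.5, 130.2 and 150.8 FPKM in Th0 (−0.73 ± 0.13, limma adjusted p = 0.00139). Rfc2 had 160.1, 161.3 and 163.5 FPKM with IL-6+TGF-β, against 220.5, 224.7 and 207.8 FPKM in Th0 (−0.43 ± 0.09, limma adjusted p = 0.00445). Rfc5 averaged 65.7 ± 5.79 FPKM with IL-6+TGF-β and 92.9 ± 1.11 FPKM in Th0 (SD, n = 3 each; −0.50, limma adjusted p = 0.0165). Lig1, Rfc2 and Rfc5 were also called lower with TNF+TGF-β, a comparison that uses the same Th0 libraries.

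Replicate 1 with IL-6+TGF-β departed from the other 2 of its group in opposite ways. It was highest for 23 of the 40 genes and lowest for 16. Without it 10 genes were called lower. Rfc5 was no longer called without Th0 replicate 1 (limma adjusted p = 0.0553), Th0 replicate 3 (0.0544), IL-6+TGF-β replicate 2 (0.0514) or IL-6+TGF-β replicate 3 (0.0691). The genes with groups apart and higher with IL-6+TGF-β were Mcm6 (0.37), Rrm2 (0.29) and Ccne2 (0.28), none of them called. Mcm6 had 419.3, 406.6 and 419.2 FPKM with IL-6+TGF-β, against 305.7, 343.2 and 313.6 FPKM in Th0 (limma adjusted p = 0.188). Tyms averaged 200.6 ± 40.5 FPKM with IL-6+TGF-β and 302.9 ± 16.7 FPKM in Th0 (SD, n = 3 each) and was not called (−0.61, limma adjusted p = 0.0782). Cdc6 (0.07), Mcm2 (−0.20), Mcm5 (−0.33), Cdc45 (−0.21), Ccne1 (−0.23) and E2f1 (−0.33) were not called, nor were Pcna (−0.40) and Cdt1 (−0.30). The direction of the set turned with the scaling, since divided by the CD3 sum the median was 0.21, with 6 genes called higher (Cdc6, Mcm6, Prim2, Rpa1, Rrm1 and Rrm2) and 0 lower. The CD3 sums were 1227, 1145 and 1054 FPKM with IL-6+TGF-β, against 1438, 1578 and 1661 FPKM in Th0. That scaling moved the median of all tested genes to 0.41, and relative to it the 40 genes stood at −0.20. Scaling whole libraries can hardly move that relative value, which was −0.26 as deposited.

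The last comparison sets the TNF pair against the IL-6 pair in WT cells. Of the 40 genes 2 were lower and 0 higher (5%), against 5.5% of all tested genes called lower and 7.31% called higher. The median was −0.10, and the libraries did not overlap for 9 genes lower and 1 higher, against 15.1% and 16.9% of tested genes. Cdt1 had 33.9, 33.8 and 39.5 FPKM with TNF+TGF-β, against 53.8, 55.9 and 48.8 FPKM with IL-6+TGF-β (−0.55 ± 0.13, limma adjusted p = 0.0167). Rfc3 had 68.2, 54.8 and 72.2 FPKM with TNF+TGF-β, against 123.2, 84.9 and 80.9 FPKM with IL-6+TGF-β (−0.54 ± 0.16, limma adjusted p = 0.0498). Neither call was firm. Cdt1 was not called without IL-6+TGF-β replicate 2 (0.0563) or without TNF+TGF-β replicate 1 (0.0744) or 2 (0.0663). When single libraries were left out, Rfc3 kept its call without IL-6+TGF-β replicate 3. Its adjusted p was 0.133 and 0.0513 without IL-6+TGF-β replicates 1 and 2, and 0.0997, 0.196 and 0.0590 without TNF+TGF-β replicates 1, 2 and 3. Rrm2 averaged 275.8 ± 50.6 FPKM with TNF+TGF-β and 400.1 ± 56.5 FPKM with the IL-6 pair (SD, n = 3 each), its groups did not overlap, and it was not called (−0.54, limma adjusted p = 0.130). Cdc6 (−0.39), Mcm2 (−0.17), Mcm5 (0.09), Cdc45 (−0.20), Pcna (−0.10), Tyms (0.33), Ccne1 (−0.49), Ccne2 (−0.19) and E2f1 (0.25) were not called.

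**Figure D5:**
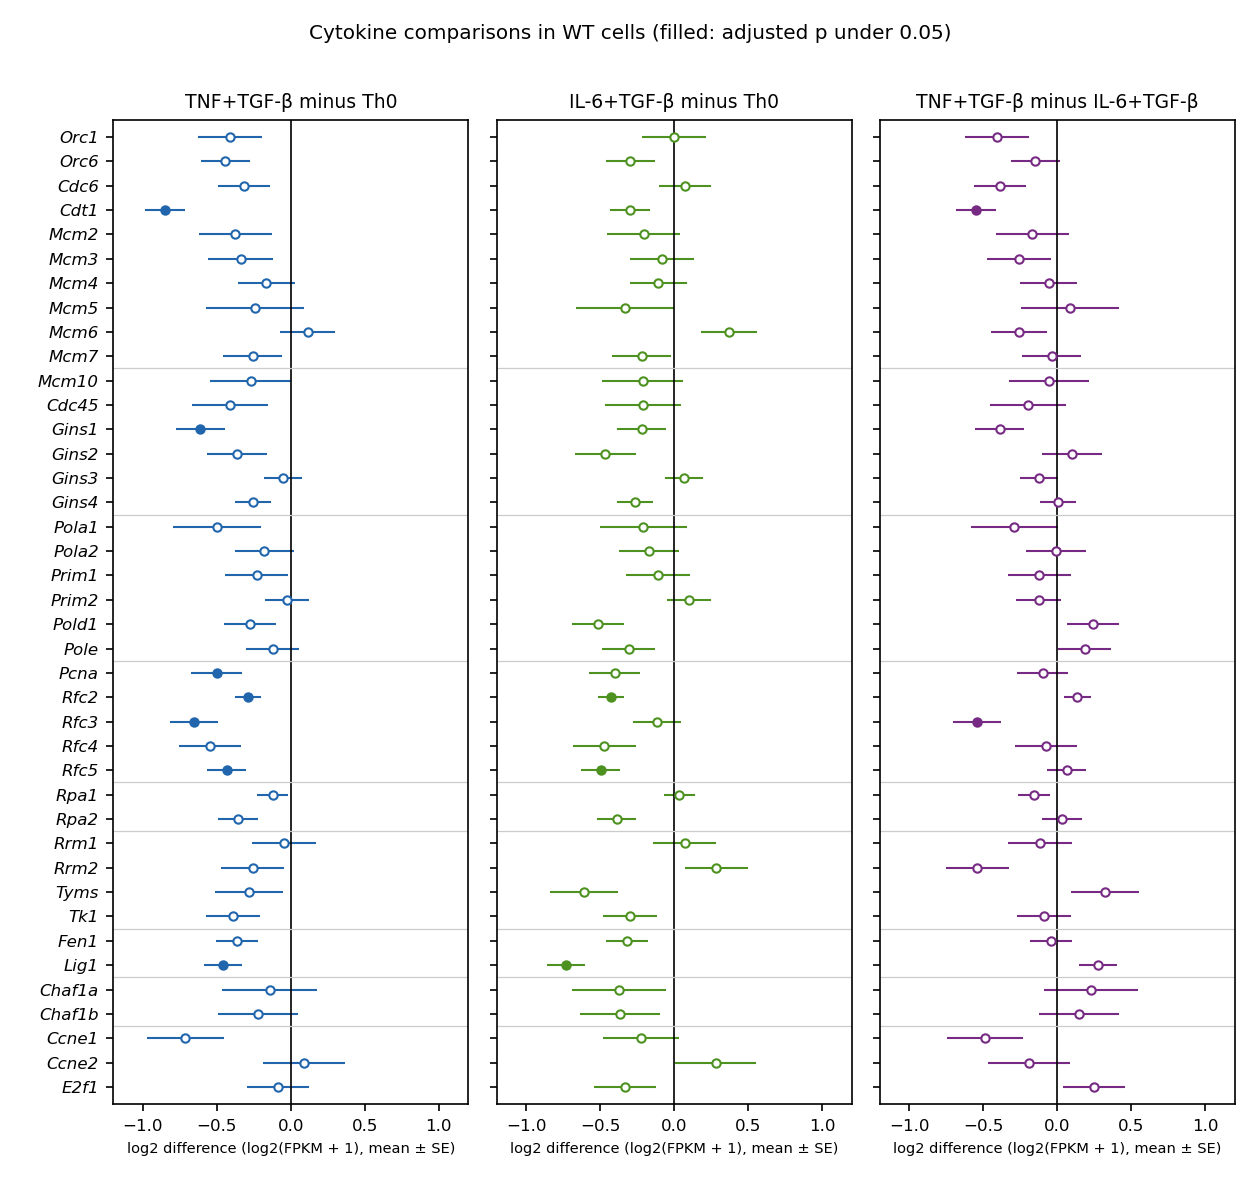
Differences in log2(FPKM + 1) for the 40 genes in the 3 cytokine comparisons of WT cells (mean ± SE, 3 libraries per group, genes in the same order by role as in the plot of Tnfr2-/- against WT). Filled points are called, 7, 3 and 2 of 40; the panels share libraries, since Th0 serves in both of the left panels and TNF+TGF-β in the first and last.

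In these WT comparisons the median differences of the mitosis and G2/M genes were positive and those of the 40 genes negative. The lists were not tested against each other. Between the cytokine pairs, the median of the 40 turned to 0.006 without TNF+TGF-β replicate 2. For IL-6+TGF-β against Th0 it turned to 0.214 with CD3 scaling. With TNF+TGF-β against Th0, 2 of the 20 mitosis genes were lower (10%, against 13% of all tested genes), Aurkb (−0.53) and Cenpa (−0.50). The median of the 20 was 0.19. With IL-6+TGF-β against Th0 and with the TNF pair against the IL-6 pair, 0 of 20 were called by limma in either direction, with medians of 0.13 and 0.04. B cell markers fell in all 8 of 8 genes with TNF+TGF-β against Th0, in 2 of 8 with IL-6+TGF-β against Th0, and in 5 of 8 with the TNF pair against the IL-6 pair. Their part in the differences of the replication genes was not tested.

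Other cell cycle lists in WT cells held larger single changes than the 40 genes. Samhd1 averaged 92.6 ± 13.4 FPKM with TNF+TGF-β and 272.2 ± 27.7 FPKM in Th0 (SD, n = 3 each; −1.55, limma adjusted p = 3.82e-06), and was also lower with the TNF pair than with the IL-6 pair (−1.22). Shmt1, of the folate cycle that feeds thymidylate, was called lower in both comparisons with Th0, by −1.16 for the TNF pair and −0.90 for the IL-6 pair. Dctd, a deoxycytidylate deaminase gene, was lower with IL-6+TGF-β (−0.82) against Th0. Rbl2, which encodes the RB relative p130, averaged 39.4 ± 10.4 FPKM with TNF+TGF-β and 8.81 ± 2.12 FPKM in Th0 (SD, n = 3 each; 2.03), and was higher with the TNF pair than with the IL-6 pair (1.17). Ccnd2, the cyclin D2 gene, averaged 410.6 ± 97.8 FPKM with IL-6+TGF-β and 1125 ± 167 FPKM in Th0 (SD, n = 3 each; −1.47), and Ccnd1 was higher with both cytokine pairs but stayed under 5 FPKM. Cdkn2d, a CDK4 and CDK6 inhibitor gene, averaged 224.7 ± 63.7 FPKM with IL-6+TGF-β and 81.5 ± 22.5 FPKM in Th0 (SD, n = 3 each; 1.46). Cdk6 was lower with the TNF pair than with the IL-6 pair (−1.17).

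Of the 32 other replication genes, 7 were lower and 2 higher with TNF+TGF-β against Th0, Pole4 (−0.73) and Mcm9 (0.71) having the largest differences. With IL-6+TGF-β against Th0, 4 were lower, among them the histone chaperone gene Asf1a (−0.92) and Pold2 (−0.74), a subunit of polymerase δ, and 1 was higher. With the TNF pair against the IL-6 pair, 1 was higher, Dna2 (0.57), a nuclease and helicase gene. None of the 13 replication checkpoint genes was called in these 3 WT comparisons by limma. Among CDK inhibitors Cdkn2b was called higher with TNF+TGF-β against Th0, but it averaged 0.847 ± 0.189 FPKM with TNF+TGF-β and 0.133 ± 0.0751 FPKM in Th0 (SD, n = 3 each). Cdkn2d was lower with the TNF pair than with the IL-6 pair (−0.90).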

How the data were processed

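RNA was measured in 12 libraries, 3 in each of 4 groups. The submitters' processing notes name STAR 2.5.4, RSEM 1.3.1, the build mm10 and Trimmomatic, the last with no version. The FPKM values were made by the authors with RSEM and deposited as a table of 1 value per gene and library, per the submitters' processing notes and the file headers. The headers do not say which RSEM quantity it is, and FPKM was inferred from the values, since library totals differ. GENCODE M21 held 99.1% of the table's gene identifiers and gave coordinates and exon overlaps. The column numbered 4 of the Tnfr2-/- group matches no label number and was used as a member of its group.

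Values were taken as log2(FPKM + 1), and the 13082 genes that reached 1 FPKM in 3 or more libraries were fitted in limma 3.58.1 with a trend (R 4.3.3). The model used all 12 libraries and had a mean for each group. The test was tested on simulated data. The pairing by replicate number was checked and is described with the alternatives. The members, lists, tests and motifs were chosen with earlier results of these data known.

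Named in every comparison, by rule, were Mcm2, Mcm5, Cdc6, Cdt1, Cdc45, Pcna, Rrm2, Tyms, Ccne1, Ccne2 and E2f1. To these were added the 2 called genes with the largest difference in each role and in each other list. Any of the 40 could be named with its values. Alternatives were another pseudocount (0.1), no filter or a stricter one (5 FPKM), TPM, median-ratio scaling, a fit on the compared groups alone, a replicate block and leaving out each library. Scaling to the CD3 genes and the Tnfr2-/- library numbered 1 alone were added after the data were seen. Depth was estimated from the steps between low values, of which 81.8% to 91.2% lay within 0.2 of a whole multiple. For a transcript of 1 kilobase, 3 fragments then equal 0.126 to 0.180 FPKM, a limit that covers counting error only. Marker lists give levels and name no cells.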

Additional observations from a re-analysis of the deposited data

How the results depend on the processing

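In Tnfr2-/- against WT cells, 0 of the 33 genes followed one by one changed direction under any alternative run. Over all 40, the positive differences numbered 1 as deposited, 6 with CD3 scaling and 4 with the Tnfr2-/- library numbered 1 alone. The count of genes called lower, 32, was 28 to 37 under all planned settings, 29 to 33 when single libraries were left out, and 26 with CD3 scaling, which called 1 gene higher; with the Tnfr2-/- library numbered 1 alone it was 19. The median of −1.02 was −1.275 to −0.876 when single libraries were left out, −0.66 with CD3 scaling and −0.662 with library 1 alone.

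With TNF+TGF-β against Th0, the 7 genes called lower became 3 in TPM, 13 with median-ratio scaling, 16 in a fit on both groups alone, 1 with CD3 scaling and 2 to 6 when single libraries were left out. The median of −0.29 was −0.055 with CD3 scaling. With IL-6+TGF-β against Th0, the 3 genes lower became 8 with median-ratio scaling, 0 with CD3 scaling and 2 to 10 when single libraries were left out. The 0 genes higher became 1 in the fit on both groups and 6 with CD3 scaling, where the median turned to 0.214. With the TNF pair against the IL-6 pair, the 2 genes lower became 1 with a pseudocount of 0.1, with no filter, with the stricter filter and in the fit on both groups, 4 with CD3 scaling and 0 to 2 when single libraries were left out. The median of −0.10 ran from −0.154 to 0.006, the last without TNF+TGF-β replicate 2, and was −0.312 with CD3 scaling. The causes were not tested.

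Named genes that changed sign, other than Rfc2, were called in neither setting. Against Th0 with TNF+TGF-β, E2f1 was 0.086 in TPM and 0.137 with CD3 scaling, and −0.148 to 0.02 when single libraries were left out (above 0 without Th0 replicate 2). Ccne2 ran from −0.124 to 0.308 in the same way, below 0 without TNF+TGF-β replicate 1 (−0.124) or Th0 replicate 3 (−0.102). Between the cytokine pairs, Ccne2 ran from −0.403 to 0.028 (above 0 without TNF+TGF-β replicate 2), Mcm5 from −0.108 to 0.189 and Pcna from −0.181 to 0.051 (both turned without IL-6+TGF-β replicate 1), and Mcm5 was −0.131 with CD3 scaling. With IL-6+TGF-β against Th0 and CD3 scaling, Cdt1 was 0.143, Mcm2 0.242, Mcm5 0.116, Cdc45 0.236, Pcna 0.046, Rfc2 0.021, Ccne1 0.216 and E2f1 0.096. Rfc2 had been called lower there as deposited, and with CD3 scaling none of these 8 was called. Over all tested genes, the shares called higher and lower in Tnfr2-/- cells were 16.1% and 21.8% in TPM and 33.1% and 8.57% with CD3 scaling. With TNF+TGF-β against Th0 they were 25% and 9.5% in TPM, 16.3% and 16.7% with median-ratio scaling and 23.9% and 5.88% with CD3 scaling. With IL-6+TGF-β against Th0 they were 33.1% and 3.84% with CD3 scaling, and between the pairs 4.72% and 8.91%.

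The labels give the replicate numbers no shared source, and the data do not settle whether they pair the libraries. The correlation of deviations between libraries of the same number was 0.043, 0.135 and 0.087 for TNF+TGF-β and Th0, and 0.29, 0.344 and 0.051 for IL-6+TGF-β and Th0. For the cytokine pairs it was 0.114, 0.203 and −0.029, and for Tnfr2-/- and WT 0.082 and 0.009 over 2 pairs. Libraries correlated best with their own number in 6 of 6, 4 of 6 and 3 of 6 cases over the 3 WT comparisons. With the replicate block, 12 genes were lower with TNF+TGF-β against Th0 (Cdc45, Rfc4, Rpa2, Fen1 and Ccne1 beside the 7), 6 with IL-6+TGF-β against Th0, 2 with the TNF pair against the IL-6 pair, and 28 in Tnfr2-/- against WT, where the library numbered 4 was left out.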
